A study of Mus musculus with 4 samples.

Results

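The genes described here are 34 genes of mitosis: the cyclins and kinases that start cell division, the proteins of the spindle, centromere and checkpoint, and those of cytokinesis. They were chosen by name from knowledge of the cell cycle, with earlier results of these data known. Each name matched 1 gene ID among the 53801 genes of the count table. The RNA came from wild type mice of strain C57BL/6, from cells labelled as osteoclast precursors, a stage of the myeloid lineage that gives rise to osteoclasts, which resorb bone. The labels name 2 mice and number the precursor cells 1 and 2. Each received DKK1 (200 ng/ml) or PBS (phosphate-buffered saline, the control) and was harvested after 3 h, which gave 4 libraries and 2 pairs. DKK1, or Dickkopf-1, is secreted and blocks canonical Wnt signals by binding the LRP co-receptors. All 4 libraries are wild type, and the labels do not state the tissue the cells came from, their culture or the age and sex of the mice. No preparation was repeated, so a difference between precursor cells 2 and 1 is a difference between these 2 preparations.

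Mitosis follows DNA replication. Cyclin A and cyclin B bind the kinase Cdk1 and drive entry, Aurora and Polo kinases build the spindle, and the spindle checkpoint holds back the anaphase-promoting complex until every chromosome is attached. That complex then marks cyclin B and securin for breakdown, after which chromosomes part and the cell divides. The mRNAs of these proteins are made mainly in G2 and M phase, so that in a mixed population their levels follow the share of dividing cells. Osteoclast precursors proliferate under M-CSF and leave the cell cycle as they become osteoclasts.

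Transcription of many mitosis genes is known to run through a short promoter element, the CHR (cell cycle genes homology region), bound by the MuvB complex with B-Myb and FOXM1, often beside CCAAT boxes bound by NF-Y. RefSeq promoters (GRCm38.p6, 250 bases before to 50 after the start, 1 window per gene) were found for 27 of the 34 genes; Aurkb, Ccna2, Cdc25c, Foxm1, Incenp, Kif20a and Tpx2 had none in the table used. The first window listed for a gene was used, and those of Kif2c, Kif4 and Pttg1 lie inside their gene models, not before the 5' end. A CHR, searched as TTTGAA or TTCGAA on both strands, was in 20 of these 27 windows (74.1%), against 19.4% of the 27025 genes with a window. The windows of Kif2c and Kif4 are among these 20. CCAAT, on both strands, was in 21 of 27 (77.8%), against 37.9% of all windows. An E2F site, searched as TTTGGCGC or TTTCCCGC on both strands, was in 0 of 27, against 1.63% of all windows. Among the DNA replication genes used below for comparison, 20.0% of 40 windows held the CHR, 52.5% CCAAT and 27.5% the E2F letters. In the 100 bases before the start alone, the CHR was in 6 of the 27 mitosis genes (22.2%), against 6.29% of all genes. CCAAT was there in 19 of the 27 (70.4%), against 19.6%. None of these motifs contains another, and a match is a description of the sequence, not a site shown to be bound. The 120 bases before the start are shown for 5 genes with a CHR and CCAAT in their windows that were lower in precursor cells 2. Matches to the CHR or to CCAAT (either strand) are in capitals. The CHR matches of Ccnb2 and Plk1 and the CCAAT matches of Mki67 lie elsewhere in the window, outside the stretch shown.
Ccnb2 (cyclin B2; chr9:70421555-70421674, minus strand): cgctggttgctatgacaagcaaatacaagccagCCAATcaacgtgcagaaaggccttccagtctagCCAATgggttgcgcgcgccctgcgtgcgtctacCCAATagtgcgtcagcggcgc
Top2a (topoisomerase II alpha; chr11:99024190-99024309, minus strand): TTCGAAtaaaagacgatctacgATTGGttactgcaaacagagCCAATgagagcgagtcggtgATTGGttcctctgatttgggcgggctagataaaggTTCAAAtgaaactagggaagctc
Mki67 (the proliferation marker Ki-67; chr7:135716380-135716499, minus strand): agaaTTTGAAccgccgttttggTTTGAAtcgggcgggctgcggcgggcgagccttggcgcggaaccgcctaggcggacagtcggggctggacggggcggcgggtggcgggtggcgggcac
Ect2 (the RhoA exchange factor of cytokinesis; chr3:27153879-27153998, minus strand): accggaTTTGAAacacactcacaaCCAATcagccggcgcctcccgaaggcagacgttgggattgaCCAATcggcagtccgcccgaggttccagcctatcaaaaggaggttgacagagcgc
Plk1 (Polo-like kinase 1; chr7:122159315-122159434, plus strand): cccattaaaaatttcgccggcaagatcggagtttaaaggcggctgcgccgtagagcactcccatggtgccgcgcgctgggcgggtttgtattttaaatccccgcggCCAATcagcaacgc

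The libraries held 41163663 to 53537927 counts, and 17462 genes passed the filter on low counts and were tested. All 34 mitosis genes passed it, with 36 to 19044 counts in a library. Markers of the labelled cell type were abundant: Csf1r, the M-CSF receptor, had 1969 and 2593 CPM with DKK1 (precursor cells 1 and 2) against 2033 and 2575 CPM with PBS, and Lyz2 was at 14288 to 24909 CPM. CPM here means a gene's counts as parts per 1e6 of a library size scaled by TMM. Markers of neutrophils and their precursors were also present (summed level of 14 genes 5542 to 10365 CPM).

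The mitosis genes were expressed in all 4 libraries. Summed over the 34 genes they stood at 1617 CPM with DKK1 and 1521 CPM with PBS in precursor cells 1, and at 932 CPM with DKK1 and 937 CPM with PBS in precursor cells 2. The libraries of precursor cells 2 were thus both lower than those of precursor cells 1, and within each preparation the treatments lay close together. In bulk RNA, fewer dividing cells and less mitotic RNA per cell cannot be told apart. Mki67, whose product Ki-67 coats mitotic chromosomes, held 19.0% to 20.8% of the counts of the 34 genes in every library.

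Levels between genes were compared as FPKM, which also divides by gene length, from the authors' deposited tables. Incenp, the scaffold of the chromosomal passenger complex, was highest in precursor cells 1, with 37.3 FPKM with DKK1 and 36.3 FPKM with PBS in the authors' deposited table, followed by Mki67 with 32.0 and 28.6 FPKM and Top2a with 19.7 and 18.9 FPKM. Precursor cells 2 had another order. There Pttg1, which encodes securin, the inhibitor of separase, came first in the authors' deposited table with 20.6 FPKM with DKK1 and 21.5 FPKM with PBS, before Incenp with 20.2 and 20.0 FPKM. For precursor cells 1 the authors' deposited table gives Pttg1 8.28 FPKM with DKK1 and 7.78 FPKM with PBS. In the authors' deposited tables the lowest of the 34 genes in precursor cells 1 were Cdc25c (1.16 FPKM with DKK1 and 1.48 FPKM with PBS) and Cenpf (1.54 and 1.47 FPKM). In precursor cells 2, for which the authors' deposited table does not list Cdc25c, they were Ttk (0.941 FPKM with DKK1 and 0.906 FPKM with PBS) and Cenpf (1.02 and 1.09 FPKM).

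**Figure D1:**
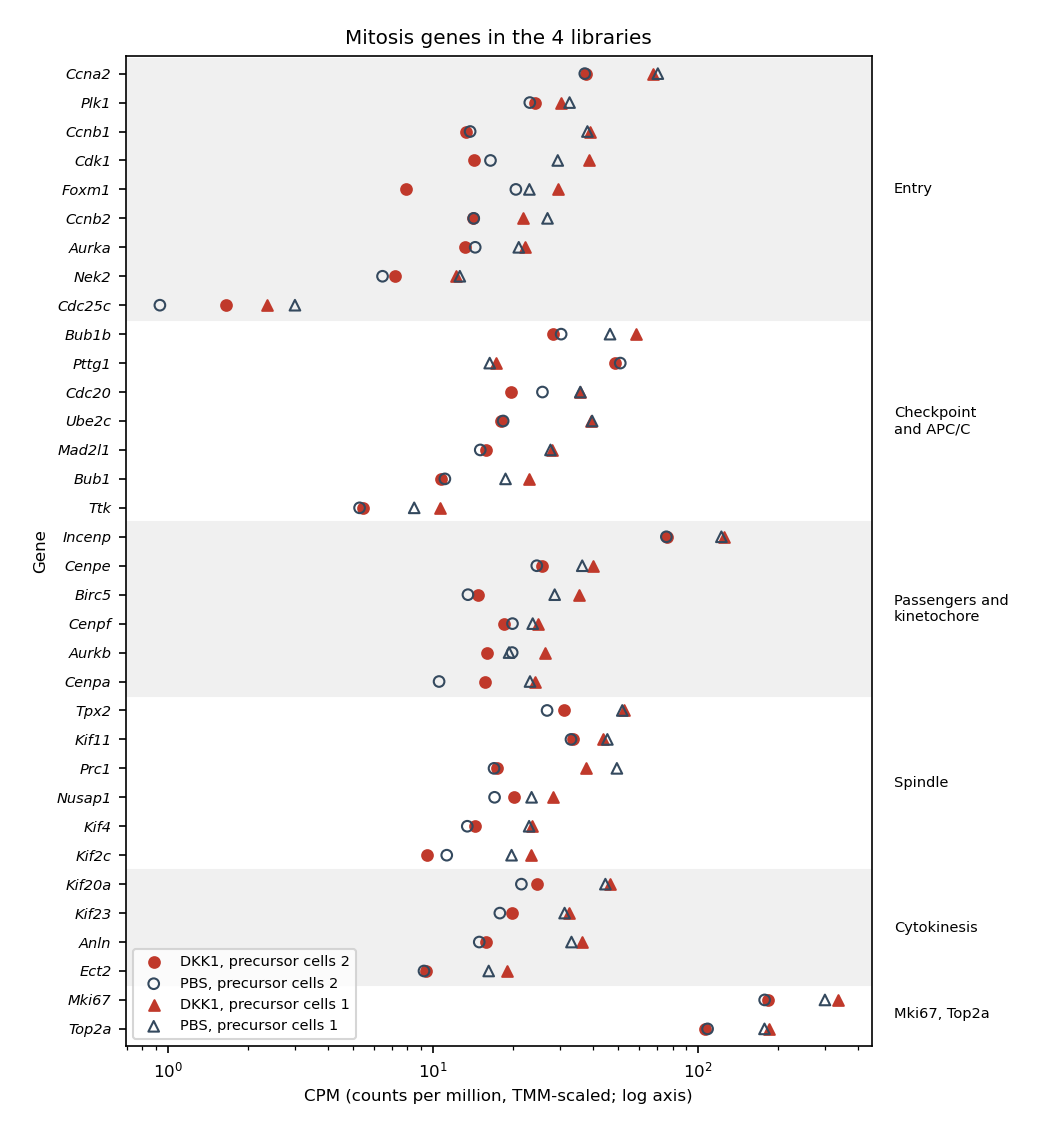
Level of each of the 34 mitosis genes in each library, as CPM on a log axis, with filled red symbols for DKK1, open dark symbols for PBS, circles for precursor cells 2 and triangles for precursor cells 1. Circles lie left of triangles for nearly all genes; Pttg1 (48.4 and 50.8 CPM in precursor cells 2, against 17.3 and 16.3 CPM in precursor cells 1) is the reverse.

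The first comparison asked whether DKK1 changes the mitosis genes of osteoclast precursors within 3 h. None of the 34 passed edgeR's quasi-likelihood test with the pairs as a block (Benjamini-Hochberg over all genes; smallest adjusted p = 0.959), and 0 had an unadjusted p under 0.05. DESeq2 and limma-voom called 0 of them as well. Over all genes the edgeR test called 9 of 17462 (0.0515%), of which 7 were higher (0.0401%) and 2 lower (0.0115%), so that a count of 0 among 34 is close to the background. For 0 genes did both DKK1 libraries lie above both PBS libraries, and for 0 below them, against 7.93% and 8.31% of all genes. These counts of 0 do not bear on DKK1. For 32 genes both libraries of precursor cells 2 lay below both of precursor cells 1, and for 1 gene above. A gene separated by preparation in this way cannot also be separated by treatment. The median log2 change of the 34 genes was 0.049, beside -0.0015 over all genes tested, with 21 positive and 13 negative values. Each 95% CI included 0, and 33 of 34 lay within 1 log2 unit of 0 (median half-width 0.28). The model leaves 1 residual degree of freedom. Its p-values set the mean change over the 2 pairs against an error. That error is estimated from the difference between the pairs and from the other genes.

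Nusap1 had the smallest p. It encodes a microtubule-binding protein of the spindle and had 28.3 and 20.1 CPM with DKK1 in precursor cells 1 and 2, against 23.5 and 17.0 CPM with PBS. DKK1 was the higher treatment in both pairs (log2 differences 0.27 and 0.24), while the groups overlapped because the preparations differ more. Its log2 change was 0.26 (SE 0.10, n = 2 pairs, edgeR adjusted p = 0.959), and it was the one gene of the 34 whose pair differences both exceeded counting error in the same direction. Over all genes tested, 12.7% did so.

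Birc5, which encodes survivin, a subunit of the chromosomal passenger complex, had 35.5 and 14.8 CPM with DKK1 against 28.7 and 13.5 CPM with PBS (log2 change 0.24, 95% CI -0.039 to 0.51). Both pairs were higher with DKK1, with overlap between the groups. Incenp, the most abundant gene of that class, was nearly level at 125 and 76.4 CPM with DKK1 against 122 and 75.8 CPM with PBS (log2 change 0.023, 95% CI -0.14 to 0.18). Cenpa, the histone H3 variant of centromeres, had 24.2 and 15.7 CPM with DKK1 against 23.2 and 10.5 CPM with PBS. The first pair differed by 0.063 and the second by 0.58, so that the log2 change of 0.27 came mainly from the second pair. The remaining genes of the class had log2 changes of 0.11 (Cenpe, a kinetochore motor), -0.015 (Cenpf, a kinetochore protein) and 0.11 (Aurkb, the kinase of the passenger complex).

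Among the genes of entry into mitosis, 2 of 9 had a positive log2 change and 7 a negative one. Ccna2, which encodes cyclin A2 and is the most abundant of them, had 67.8 and 37.6 CPM with DKK1 against 70.4 and 37.3 CPM with PBS, a log2 change of -0.025 (95% CI -0.22 to 0.17). Ccnb1, which encodes cyclin B1, had 39.0 and 13.3 CPM with DKK1 against 38.2 and 13.8 CPM with PBS. These 2 cyclins differed little between treatments in either pair. Ccnb2 had 21.9 and 14.2 CPM with DKK1 against 27.0 and 14.2 CPM with PBS, lower in the first pair and level in the second (log2 change -0.18, 95% CI -0.50 to 0.13). For Plk1, Aurka and Nek2, kinases of centrosomes and spindle, the log2 changes were -0.027, -0.0082 and 0.028.

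Of the 7 checkpoint and anaphase-promoting complex genes, 4 had a positive value. Bub1b, which encodes the checkpoint kinase BubR1, had 58.4 and 28.4 CPM with DKK1 against 46.5 and 30.4 CPM with PBS, higher in the first pair and lower in the second (log2 change 0.14, 95% CI -0.16 to 0.45). Ttk, which encodes the checkpoint kinase Mps1, had 10.6 and 5.45 CPM with DKK1 against 8.48 and 5.28 CPM with PBS (log2 change 0.23, 95% CI -0.21 to 0.66). Cdc20, the activator of the anaphase-promoting complex, had 35.7 and 19.6 CPM with DKK1 against 35.9 and 25.8 CPM with PBS, level in the first pair and lower in the second (log2 change -0.18, 95% CI -0.49 to 0.13). The checkpoint genes Bub1 and Mad2l1 had log2 changes of 0.16 and 0.041, and Ube2c, the ubiquitin-conjugating enzyme of the complex, -0.019.

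The spindle genes ranged from -0.21 to 0.26 on the log2 scale. Prc1, which bundles microtubules of the central spindle, had 37.8 and 17.5 CPM with DKK1 against 49.3 and 17.0 CPM with PBS (log2 change -0.21, 95% CI -0.53 to 0.11). Only its first pair was lower with DKK1. Tpx2, an activator of Aurora A, had 52.3 and 31.2 CPM with DKK1 against 51.7 and 26.9 CPM with PBS (log2 change 0.10, 95% CI -0.13 to 0.34). The kinesins Kif11, Kif4 and Kif2c had log2 changes of -0.020, 0.063 and 0.056.

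All 4 cytokinesis genes were higher with DKK1 in both pairs, with log2 changes from 0.096 to 0.15 and no call. None of these 4 genes exceeded counting error in both pairs, and each of their 95% CIs included 0. Kif20a, a kinesin of the central spindle and the most abundant of them, had 46.3 and 24.7 CPM with DKK1 against 44.6 and 21.5 CPM with PBS (log2 change 0.12, 95% CI -0.12 to 0.35). Kif23, which forms centralspindlin, Anln, which encodes anillin, and Ect2 were the others. Mki67 had 336 and 183 CPM with DKK1 against 301 and 178 CPM with PBS (log2 change 0.10, 95% CI -0.040 to 0.24), and Top2a 186 and 106 CPM with DKK1 against 178 and 108 CPM with PBS (log2 change 0.014, 95% CI -0.14 to 0.17). Top2a, which untangles sister chromatids, thus differed in sign between the pairs.

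The pairs were then set side by side. In precursor cells 1, 25 of 34 genes were higher and 9 lower with DKK1; in precursor cells 2, 20 were higher and 14 lower. The sign was the same in both pairs for 17 genes, of which 14 were higher, and opposite for 17. The 95% counting interval of a library against its partner (exact, for the split of their counts) excluded 0 for 14 higher and 4 lower genes in precursor cells 1, against 23.2% higher and 24.1% lower over all genes tested. In precursor cells 2 it did so for 6 higher and 5 lower genes, against 22.1% and 22.7%. Such intervals cover counting error only, not the spread between cultures.

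For 5 genes these intervals excluded 0 in opposite directions in the 2 pairs (10.2% of all genes tested). Foxm1, the transcription factor that drives G2 and M phase genes, differed most. It had 1674 and 342 counts with DKK1 in precursor cells 1 and 2 against 1303 and 793 counts with PBS, which is 29.5 and 7.87 CPM against 23.1 and 20.5 CPM. The second DKK1 library stands apart from the other 3, and the log2 differences of the pairs were 0.35 (counting interval 0.25 to 0.46) and -1.38 (-1.57 to -1.20). Across both pairs its log2 change was -0.32 with a 95% CI of -1.24 to 0.60 (edgeR adjusted p = 0.970). The authors' deposited tables, which compare 1 library with 1, call Foxm1 lower in precursor cells 2 (log2 ratio -1.31, FDR 3.62e-33), and it is the only one of the 34 genes with a call there (130 of 13175 genes, 0.987%). For precursor cells 1 the authors' deposited table has calls for 122 of 13253 genes (0.921%) and for 0 of the 34. At an FDR under 0.05 alone, the authors' deposited tables hold 9 of the 34 genes as higher and 2 as lower in precursor cells 1 (9.11% and 9.92% of all listed genes), and 1 as higher and 3 as lower in precursor cells 2 (8.24% and 8.49%).

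The other genes with opposite pairs were Aurkb, Cdk1, Kif2c and Cdc25c. Aurkb had 26.4 and 15.9 CPM with DKK1 against 19.3 and 19.9 CPM with PBS, so its DKK1 libraries lay on both sides of the PBS libraries (log2 differences 0.45 and -0.32). Cdk1, the kinase that cyclin A and cyclin B activate, had 38.6 and 14.2 CPM with DKK1 against 29.5 and 16.5 CPM with PBS (0.39 and -0.21). Kif2c, a kinesin that takes apart microtubules at centromeres, had 23.4 and 9.45 CPM with DKK1 against 19.8 and 11.3 CPM with PBS (0.24 and -0.25). Cdc25c, the phosphatase that activates Cdk1, had only 134 and 72 counts with DKK1 against 170 and 36 counts with PBS (-0.34 and 0.80). With 1 library on each side of a pair, the differences between the pairs could not be tested.

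**Figure D2:**
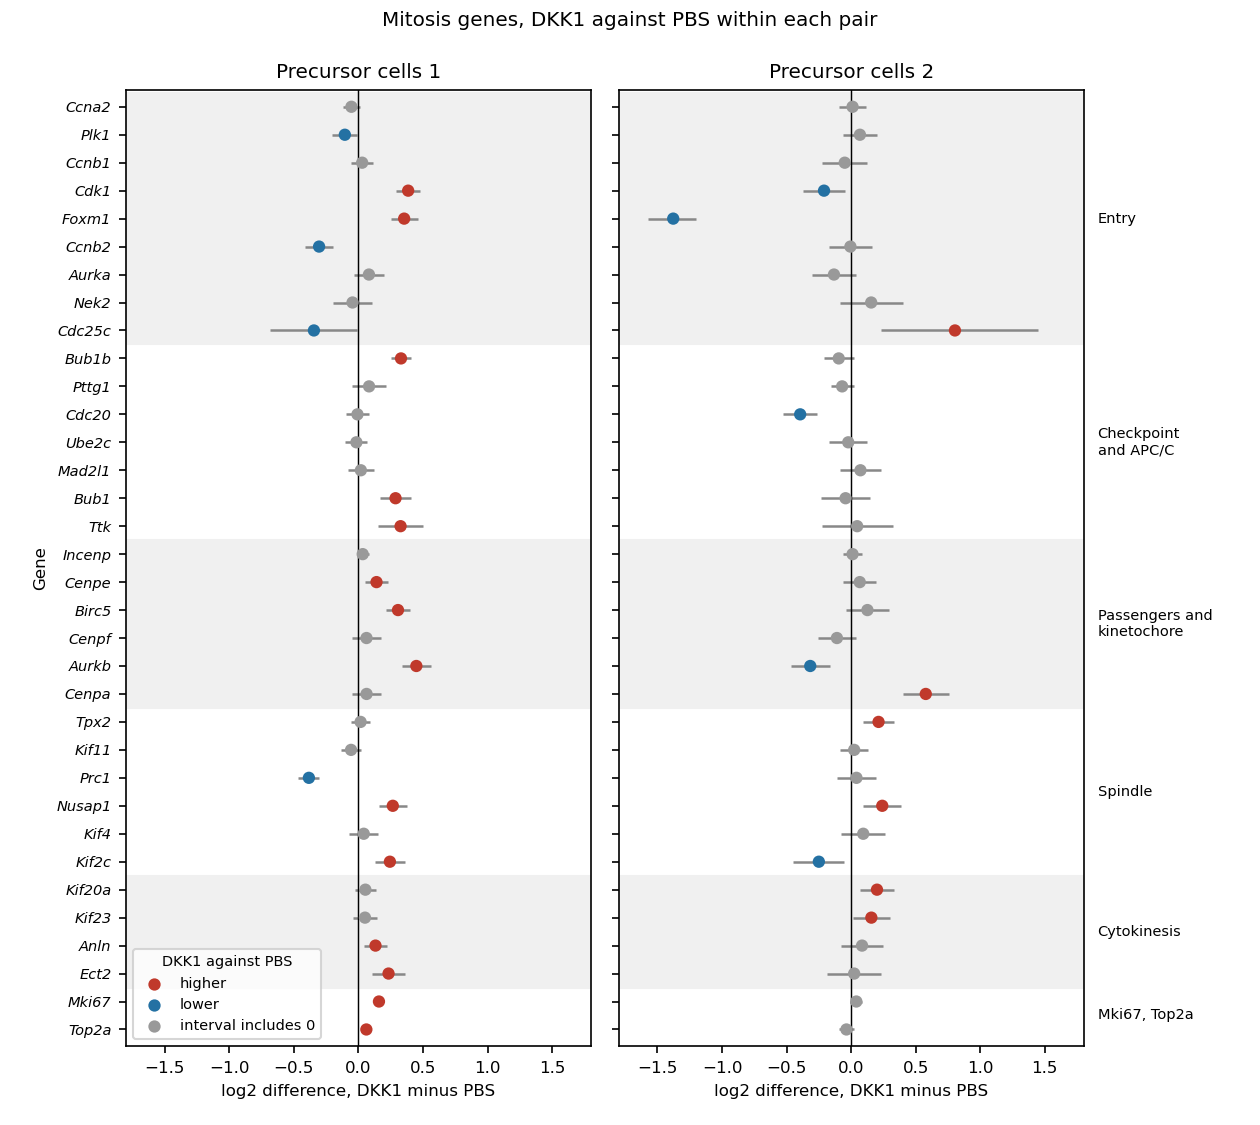
Log2 difference in CPM, DKK1 minus PBS, for each mitosis gene within precursor cells 1 (left) and precursor cells 2 (right), with 95% counting intervals as lines; red and blue points mark intervals above and below 0. Most points lie within 0.5 of 0 (34 genes in precursor cells 1, 31 in precursor cells 2), and Foxm1 in precursor cells 2 lies at -1.38.

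Among other cell cycle genes, from lists of related genes, edgeR called with DKK1 0 of 76 further mitosis genes (median log2 change 0.020), 0 of 49 DNA replication and S phase genes (0.0035), 0 of 18 MuvB, E2F and MYB regulators (0.0015) and 0 of 18 cell cycle inhibitors and p53 targets (-0.041), beside 0.0515% of all genes. At an unadjusted p under 0.05 the counts were 4, 1, 0 and 0. The smallest p of the further mitosis genes belonged to Cep55, a protein of abscission, with 20.6 and 11.7 CPM with DKK1 against 14.2 and 9.29 CPM with PBS (log2 change 0.45), and to Tacc3, a spindle protein, with 29.2 and 19.1 CPM with DKK1 against 33.7 and 29.6 CPM with PBS (-0.40). Both kept their sign in each pair and neither was called (adjusted p = 0.959 each). In the other lists the smallest p belonged to Cdc7, a replication kinase (log2 change 0.50), and Timeless (-0.23), to E2f4 (-0.14) and Lin9 (0.25), and to Ei24 (-0.25) and the CDK inhibitor Cdkn1c (1.53, from 50 and 19 counts with DKK1 against 19 and 4 with PBS), none of them called. Of the marker lists, 0 members were called with DKK1. At an unadjusted p under 0.05 there were 6 of 14 B lineage markers (median log2 change -0.38) and 4 of 9 erythroid markers (-0.40), beside 781 of 17462 genes. The remaining lists had 2 each (monocyte and macrophage, neutrophil, stromal), 1 (mast cell and basophil) or 0 (T and NK, megakaryocyte, endothelial). Their part in the values of the mitosis genes was not tested.

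The second comparison set the 2 preparations against each other, from the same model with treatment as a term. The libraries on each side came from the same preparation, so the p-values do not cover the spread between preparations or mice. Mitosis genes were lower in precursor cells 2: 29 of 34 fell and 1 rose (edgeR adjusted p under 0.05), where 15.9% of all genes tested were lower and 17.9% higher. The median log2 difference was -0.84, beside -0.0034 over all genes. It was similar within the DKK1 and the PBS libraries (medians -0.82 and -0.79). For 32 genes both libraries of precursor cells 2 lay below both of precursor cells 1, which was so for 35.3% of all genes, and for 1 gene both lay above (33.7% of all genes).

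Cyclin B1 showed the largest fall. Ccnb1 had 13.3 CPM (DKK1) and 13.8 CPM (PBS) in precursor cells 2, against 39.0 and 38.2 CPM in precursor cells 1, with no overlap, a 2.85-fold lower level (log2 -1.51, SE 0.10, 2 libraries each, edgeR adjusted p = 0.000258). It has near-identical processed pseudogenes, and its own model held 95.8% of the counts of all of them. Ccna2 had 37.6 and 37.3 CPM in precursor cells 2, against 67.8 and 70.4 CPM in precursor cells 1 (log2 -0.88, SE 0.079, edgeR adjusted p = 0.000705). Of the 9 entry genes, 7 fell. Cdk1 was at 14.2 and 16.5 CPM against 38.6 and 29.5 CPM (log2 -1.15), while Plk1 fell least of those called (log2 -0.41, 24.3 and 23.2 CPM in precursor cells 2, against 30.4 and 32.7 CPM in precursor cells 1).

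Foxm1 and Cdc25c did not pass. The log2 difference of Foxm1 between the preparations was -1.90 within the DKK1 libraries and -0.17 within the PBS libraries, so its value of -0.96 (adjusted p = 0.105) rests on the second DKK1 library. Cdc25c, at 0.931 to 3.01 CPM, had a log2 difference of -1.03 (adjusted p = 0.0972).

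Pttg1 was the exception. Securin mRNA had 48.4 CPM (DKK1) and 50.8 CPM (PBS) in precursor cells 2, against 17.3 and 16.3 CPM in precursor cells 1, a 2.95-fold higher level (log2 1.56, SE 0.10, edgeR adjusted p = 0.000177). Its p was the smallest of the 34 genes, and the groups were far apart in both treatments (log2 1.48 within DKK1, 1.63 within PBS). Pttg1 (ENSMUSG00000020415, chromosome 11, 43420250 to 43426251, minus strand of GRCm38) shares no exon with another gene model and has no near-identical transcript in GENCODE M21. The window found for Pttg1 held none of the CHR, CCAAT or E2F letters, and neither did those of Birc5, Mad2l1 and Nusap1, which fell. The Pttg1 window belongs to a listed start inside the gene model (the 120 bases before that start are 43425982 to 43426101). The bases before the 5' end of the Pttg1 model were thus not searched. The other 6 genes of the checkpoint and anaphase-promoting complex class all fell, among them Ube2c with 18.1 and 18.4 CPM in precursor cells 2, against 39.4 and 39.8 CPM in precursor cells 1 (log2 -1.12, SE 0.10, edgeR adjusted p = 0.000614). Bub1b, the most abundant of them, had 28.4 and 30.4 CPM against 58.4 and 46.5 CPM (log2 -0.83), and Cdc20 had 19.6 and 25.8 CPM against 35.7 and 35.9 CPM (log2 -0.67).

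Spindle and cytokinesis genes all fell, 6 of 6 and 4 of 4. Prc1, with 17.5 and 17.0 CPM in precursor cells 2, against 37.8 and 49.3 CPM in precursor cells 1, had the lowest value of them (log2 -1.33). Tpx2 had 31.2 and 26.9 CPM against 52.3 and 51.7 CPM (log2 -0.84, edgeR adjusted p = 0.00166). Kif11, the motor that pushes spindle poles apart, and Nusap1 moved least, with log2 differences of -0.42 and -0.48. Anln had 15.8 and 14.9 CPM in precursor cells 2, against 36.4 and 33.2 CPM in precursor cells 1 (log2 -1.18, SE 0.10, edgeR adjusted p = 0.000632), and Kif20a 24.7 and 21.5 CPM against 46.3 and 44.6 CPM (log2 -0.98).

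Of the centromere, kinetochore and passenger genes 4 of 6 fell. Birc5 had 14.8 and 13.5 CPM in precursor cells 2, against 35.5 and 28.7 CPM in precursor cells 1 (log2 -1.18, SE 0.11, edgeR adjusted p = 0.000873). Incenp, also of the passenger complex, had 76.4 and 75.8 CPM against 125 and 122 CPM (log2 -0.70, SE 0.065). Aurkb, the kinase of that complex, was not called: its log2 difference was -0.73 within the DKK1 libraries and 0.039 within the PBS libraries (adjusted p = 0.223). Cenpf was at 18.4 and 19.9 CPM against 24.8 and 23.7 CPM, without overlap but not called (log2 -0.34, adjusted p = 0.0651). Mki67 had 183 and 178 CPM in precursor cells 2, against 336 and 301 CPM in precursor cells 1 (log2 -0.82, SE 0.057, edgeR adjusted p = 0.00027), and Top2a 106 and 108 CPM against 186 and 178 CPM (log2 -0.76, SE 0.062).

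**Figure D3:**
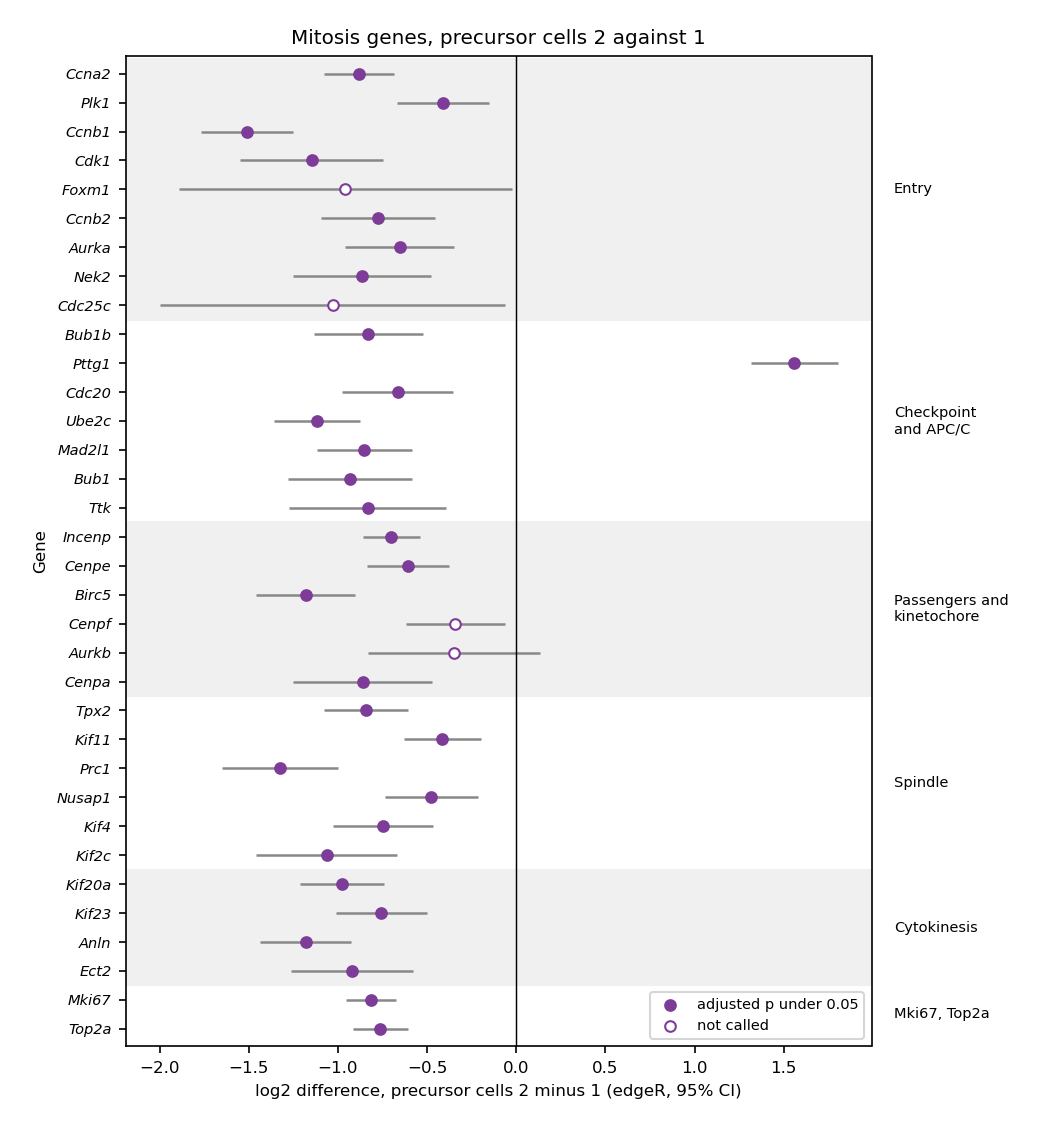
Log2 difference between precursor cells 2 and 1 for each mitosis gene, from edgeR with 95% CI, with filled points for an adjusted p under 0.05. The points of 33 genes lie between -1.51 (Ccnb1) and -0.34 (Cenpf), with Pttg1 alone above 0 at 1.56.

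The counts do not state which strand was used, and reads from genes that overlap cannot then be told apart. For 8 of the 34 genes the model held under 95% of the counts summed over it and its overlapping or near-identical models. Such a sum takes in all counts of a partner gene, not only reads in the overlap, which spans 53 bases for Cdc20 and Elovl1. Each of the 8 had an overlapping gene on the opposite strand (among them Exosc9 for Ccna2, Elovl1 for Cdc20, Cdc23 for Kif20a, Pdzd11 for Kif4, Rccd1 for Prc1). Summed with those models, 28 genes stayed called between the preparations, and Cdc20 and Kif4, which hold 23.8% and 37.2% of the sums, lost their call. The summed value of Kif4 had the other sign (log2 0.033).

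Other cell cycle genes were also lower in precursor cells 2, where 15.9% of all genes tested were lower and 17.9% higher. Of 76 further mitosis genes 52 fell and 0 rose (median log2 -0.62). Espl1, which encodes separase, the protease that securin inhibits, had 21.6 and 22.7 CPM in precursor cells 2, against 46.2 and 42.0 CPM in precursor cells 1 (log2 -0.99, edgeR adjusted p = 0.00114). Pkmyt1, an inhibitory kinase of Cdk1, had a log2 difference of -1.02, the spindle protein gene Ckap2l -0.95 and the condensin subunit gene Smc2 -0.77. Of 49 DNA replication and S phase genes 35 fell and 1 rose (median -0.71). Mcm5, a subunit of the replicative helicase, had 53.7 and 55.4 CPM against 127 and 130 CPM (log2 -1.24, edgeR adjusted p = 9.93e-05). The log2 differences were -1.21 for Rrm1, of ribonucleotide reductase, -1.26 for the DNA ligase gene Lig1 and -1.48 for the polymerase gene Pola1. Timeless, of the replication fork, was the gene that rose, with 29.4 and 35.1 CPM in precursor cells 2, against 13.3 and 15.4 CPM in precursor cells 1 (log2 1.16).

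Of 18 MuvB, E2F and MYB regulators 9 fell and 1 rose (median -0.30). Those with the smallest p were Rbbp4 (log2 -0.35), E2f7 (-1.02), Tfdp1 (-0.35) and E2f2 (-0.40), and Mybl2, which encodes B-Myb, fell as well (-0.48). The gene that rose was Rbl2 (log2 0.51), which encodes p130, the pocket protein of the repressive DREAM complex in resting cells. Of 18 cell cycle inhibitors and p53 targets 6 rose and 4 fell (median -0.024), beside 17.9% higher and 15.9% lower over all genes tested. Cdkn1a, which encodes the CDK inhibitor p21, had 258 and 272 CPM in precursor cells 2, against 105 and 107 CPM in precursor cells 1 (log2 1.32, SE 0.057, edgeR adjusted p = 4.12e-05). Trp53inp1, a p53 target, had a log2 difference of 1.51, while the INK4 inhibitor genes Cdkn2d and Cdkn2c fell (-0.99 and -0.90). Other p53 targets went both ways: Ccng1 and Phlda3 rose (0.40 and 0.93), and Mdm2 and Gadd45a fell (-0.23 and -0.70). Mybl2, Rbl2, Ccng1, Phlda3, Mdm2 and Gadd45a were named here after their values were seen.

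**Figure D4:**
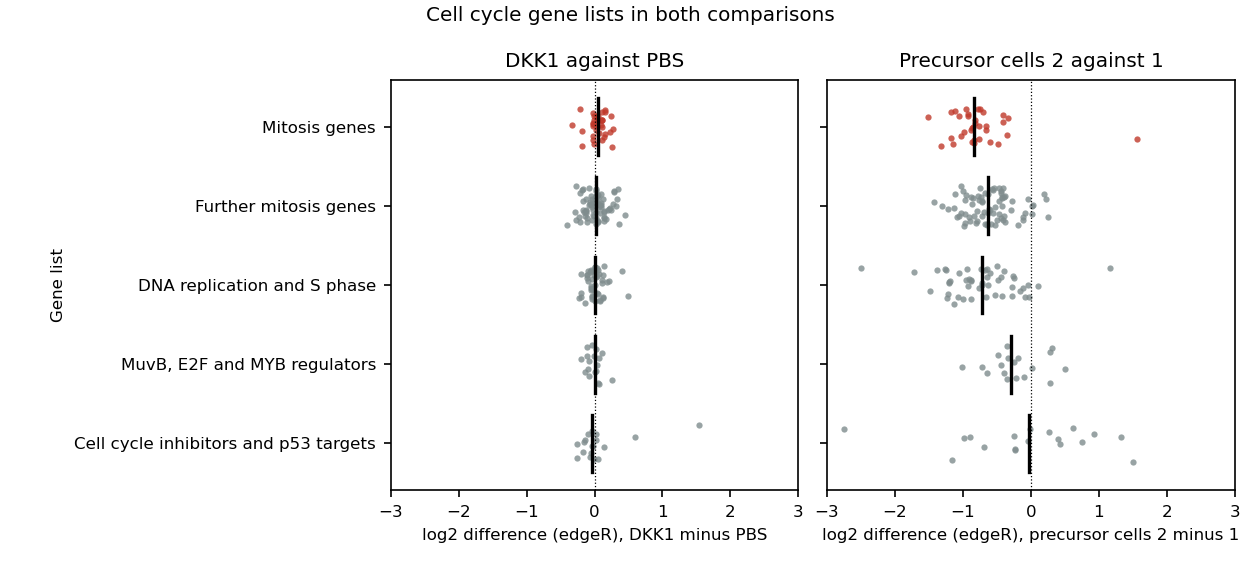
Log2 change with DKK1 (left) and log2 difference between precursor cells 2 and 1 (right), edgeR, for each gene of 5 lists, with a black bar at each list's median. With DKK1 the medians lie between -0.041 and 0.049; between the preparations they are -0.84 for the mitosis genes, -0.62, -0.71, -0.30 and -0.024 from the second list down.

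Markers of other cell types were counted between the preparations in the same way, where 17.9% of all genes tested were higher and 15.9% lower in precursor cells 2. Summed levels are given with DKK1 and then PBS. Of 14 B lineage markers 11 fell and 1 rose in precursor cells 2 (summed level 175 and 174 CPM, against 267 and 351 CPM in precursor cells 1), although Blnk and Cd22, the most abundant, had log2 differences of -0.0052 and 0.91. Of 14 neutrophil markers 13 rose and 0 fell (summed level 10365 and 10272 CPM, against 5542 and 5668 CPM), and the most abundant, Ngp and S100a9, had log2 differences of 1.14 and 0.49. Of 9 erythroid markers tested 5 rose and 0 fell (147 and 186 CPM, against 94.9 and 123 CPM), with Hba-a1 at 0.54 and Hbb-bs at 0.96. Of 8 mast cell and basophil markers tested 4 rose and 1 fell (111 and 129 CPM, against 113 and 117 CPM), with Hdc at -0.30 and Kit at 0.52, and Cma1 and Mcpt4 were at 0 in every library.

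Of 8 megakaryocyte markers 4 fell (1148 and 1146 CPM, against 1695 and 1793 CPM), with Pf4 at -1.17 and Ppbp at -0.48. Of 7 endothelial markers 3 rose (128 and 122 CPM, against 52.7 and 55.2 CPM), with Kdr at 2.74 and Pecam1 at 0.50, and of 12 stromal markers tested 3 rose and 1 fell (158 and 169 CPM, against 120 and 93.9 CPM), with Col1a1 at 0.39 and Sparc at 1.13. Of 7 T and NK markers tested 1 fell (18.4 and 21.3 CPM, against 19.0 and 22.4 CPM), with Nkg7 at 0.42 and Cd247 at -0.14. Of 14 monocyte, macrophage and osteoclast precursor markers 6 rose and 3 fell (25198 and 24795 CPM, against 33012 and 33315 CPM), with Lyz2 at -0.78 and Csf1r at 0.37. Lyz2 alone had 14685 and 14288 CPM, against 24782 and 24909 CPM, so these sums mainly follow Lyz2. Of the 14 log2 differences 11 were positive, among them Ly6c2 at 2.84 and Mertk at 2.12, while Cd14 was at -1.50. The part of any of these cells in the difference of the mitosis genes was not tested.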

How the data were processed

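Per the submitters' processing notes, reads were handled with fastp and HISAT2 on mm10. Which program counted them, and on which annotation, is not given in the sources used here. The count table deposited by the authors holds raw counts per gene, and its counts equal those in the authors' deposited tables (0 differing), which also give FPKM values, log2 ratios of DKK1 over PBS and FDR and p-values from a test that is not stated. The FPKM values were used only for levels between genes.

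All 17462 genes passing filterByExpr (99.9% of counts) were fitted with edgeR 4.0.16 in R 4.3.3 (quasi-likelihood, TMM, terms for precursor cells and treatment; 1 residual degree of freedom), with two-sided tests and Benjamini-Hochberg adjustment at 0.05. The labels' titles number the precursor cells and the protocol names 2 mice, which is where the pairing comes from; libraries with 1 number deviated together from the means of their groups (r = 0.726). Pair differences are log2 CPM with a prior count of 2. Alternatives used limma 3.58.1, DESeq2 1.42.0, other scalings and filters, no pairing and left-out libraries. The model was run on simulated counts with the same spread setting for every gene and the same change in both pairs. These data differ from that, so the run does not bear on the p-values given here. Overlaps came from GENCODE M21 and BLAST 2.17.0 (alignments of 100 bases or more, covering 50% of the shorter transcript at 95% identity), promoters from RefSeq, and counting intervals (95%, Clopper-Pearson) from SciPy 1.17.1.

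The genes and lists were chosen with earlier results of these data known. The text gives in full the 10 genes with the smallest p where 3 or more were called, otherwise the 8 with the smallest p, and the most abundant gene of each of 6 role groups. From other lists it names up to 4 called genes with the smallest p, otherwise 2, and the 2 most abundant of each marker list. Further genes were named after their values were seen.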

Additional observations from a re-analysis of the deposited data

Results flagged for a closer look

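For 5 mitosis genes the change with DKK1 went beyond counting error in opposite directions in the 2 pairs. The log2 difference, DKK1 minus PBS, came to 0.354 (precursor cells 1) and -1.378 (precursor cells 2) for Foxm1, 0.448 and -0.317 for Aurkb, 0.385 and -0.21 for Cdk1, and 0.244 and -0.25 for Kif2c. Cdc25c went the other way, with -0.345 in precursor cells 1 and 0.804 in precursor cells 2. These differences between the pairs were not tested, since each pair holds 1 library per treatment. Over all genes tested, 10.2% met the same condition.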

How the results depend on the processing

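With DKK1 the count of mitosis genes called was 0 under all settings run. The count over all genes (9) was 5 with upper-quartile scaling, 0 without the filter on low counts (911 with an unadjusted p under 0.05), 15 with a stricter filter, 46 with DESeq2, 2 with limma-voom and 0 without the replicate block (115 with an unadjusted p under 0.05). With any 1 library left out it was 0 to 0, in fits that drop the pairing and assume that the lone library varies like the other treatment. In those fits, in which the preparations are unbalanced, the median log2 change of the mitosis genes ran from -0.43 to 0.54. With a pair left out it was 0.062 (precursor cells 1 alone) and 0.023 (precursor cells 2 alone), and no count of calls can be had from 1 pair. Over these fits and the single pairs, single genes ran from -0.32 to 0.45 (Aurkb), -0.52 to 0.90 (Birc5), -0.44 to 0.61 (Bub1b), -0.52 to 0.50 (Ccna2), -0.58 to 0.34 (Ccnb2), -0.65 to 0.21 (Cdc20), -0.58 to 1.11 (Cdc25c), -0.69 to 0.75 (Cdk1), -0.21 to 0.92 (Cenpa), -1.47 to 0.44 (Foxm1), -0.37 to 0.41 (Incenp), -0.42 to 0.72 (Kif20a), -0.71 to 0.60 (Kif2c), -0.39 to 0.54 (Mki67), -0.0095 to 0.51 (Nusap1), -0.93 to 0.70 (Prc1), -0.33 to 0.63 (Tpx2) and -0.34 to 0.63 (Ttk). Cdc25c also changed sign with DESeq2 (0.22), without the replicate block (0.020) and summed with overlapping models (0.0058). The cause was not tested. Between the preparations the count over all genes (5905) was 3507 without the filter and 3917 to 4891 with 1 library left out. The count of mitosis genes called was 26 to 31 over all settings. Nusap1 and Ttk lost their call without DKK1 1, Ccnb2, Plk1, Nusap1 and Ttk without DKK1 2, Plk1 without PBS 1, and Plk1, Kif11, Nusap1 and Ttk without PBS 2. Foxm1 gained one without PBS 2, Aurkb without PBS 1 and Cenpf with upper-quartile scaling. Cdc20, Plk1, Cenpa and Ttk lost it without the filter, and Plk1 and Nusap1 with DESeq2. The median log2 difference (-0.84) was -0.89 with upper-quartile scaling, -0.87 without the filter and -0.85 to -0.76 with 1 library left out. Kif4 changed sign only when summed with Pdzd11 (0.033), a setting chosen after seeing the data. Depth limits Cdc25c most, with 36 counts in its lowest library.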
